A study of Mus musculus with 2 samples.

Results

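The IFIT and OAS loci were represented by 7 listed reporter elements, which belonged to 5 of the 9 genes Ifit1, Ifit2, Ifit3, Ifit3b, Oas1a, Oas2, Oas3, Oasl1 and Oasl2. An element was given to one of these genes when that gene had the protein-coding start site nearest to the midpoint of the element, within 100 kb (GENCODE M21 basic annotation, genome build mm10). The series listed 10531 elements in all. STARR-seq (self-transcribing active regulatory region sequencing) places genomic fragments in the transcribed part of a reporter plasmid, so that a fragment which enhances transcription is over-represented in the reporter's own RNA. Both biological replicates (n = 2, 1 donor record, separate biosamples) were primary naive CD4-positive, alpha-beta T cells of C57BL/6NJ mice that had been activated for 3 days with anti-CD3e and anti-CD28 in the presence of anti-Interleukin-4, anti-Interferon-gamma and Interleukin-2. The plasmid library, of fragments selected at 200 to 400 bp, was introduced by transient transfection and stayed episomal. Age was recorded as unknown and sex as not collected. The visible doses were 0.25 µg/mL anti-CD3e and 1 µg/mL anti-CD28 for replicate 2, and 2 µg/mL anti-Interferon-gamma and 10 ng/mL Interleukin-2 for replicate 1. There was 1 group and no second condition, and no interferon is named among the agents.

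The deposited list pools both replicates. It gives 1 effect and 1 adjusted p-value per element, no value per replicate and no read count, so the spread between replicates and the depth are unknown here, and no difference between elements was tested. The effect is taken as log2 of reporter RNA over its reference. The base and the direction are not given in the sources used here, so a positive value is likely, not certainly, more reporter RNA. Every fold rests on that reading. The list holds only elements with an adjusted p of at most 0.01, by the authors' own test. Since the assay measures plasmid fragments, markers of the labelled cell type and the RNA of the IFIT and OAS genes themselves were not measured. The nearest start site names an element and does not show on which gene it acts.

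IFIT proteins (interferon-induced proteins with tetratricopeptide repeats) bind viral RNA and hinder its translation. OAS enzymes (oligoadenylate synthetases) sense double-stranded RNA and make short oligoadenylates, which act as antiviral second messengers. Both families are classical type I interferon targets: the receptor (Ifnar1 and Ifnar2) and its kinases (Jak1 and Tyk2) activate the complex ISGF3, in which Irf9 makes much of the contact with DNA. ISGF3 binds the interferon-stimulated response element (ISRE), and other interferon regulatory factors bind related letters. Here an ISRE is an exact match to GAAANNGAAA on either strand.

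The stretches that hold these ISREs are shown first, because they are what most of the elements shared. They come from the RefSeq sequence of the mm10 assembly, written 5′ to 3′ on the strand that carries the GAAA letters, with the ISREs in capitals. The promoters of Ifit3 (chr19:34583313-34583472, minus strand) and Ifit3b (chr19:34607709-34607868, minus strand) are identical over these 160 bases, and 1 line stands for both. The stretch between the start sites of Ifit1 and Ifit1bl2 is chr19:34640744-34640870 (minus strand). The intronic site upstream of Ifit3, inside Ifit2, is chr19:34570168-34570218 (minus strand).
Ifit3: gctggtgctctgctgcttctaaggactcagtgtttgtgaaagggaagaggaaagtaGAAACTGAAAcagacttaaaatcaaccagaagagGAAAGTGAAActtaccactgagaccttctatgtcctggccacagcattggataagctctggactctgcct
Ifit1-Ifit1bl2: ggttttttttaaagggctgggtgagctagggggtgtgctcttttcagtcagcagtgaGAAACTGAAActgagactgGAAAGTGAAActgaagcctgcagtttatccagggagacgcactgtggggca
Ifit3 distal: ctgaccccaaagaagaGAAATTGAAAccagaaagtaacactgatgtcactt

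The sites of the OAS family follow for comparison: some carry the same cores as the IFIT sites (GAAAGTGAAA at Oasl2, GAAACTGAAA at Oas1a and Oas1b-Oas1c), and others carry different ones. Those in the listed elements are 2 Oasl2 sites (chr5:114897488-114897517 and chr5:114897459-114897488, minus strand), the Oasl1 site (chr5:114922942-114923001, minus strand) and the Oas3 site (chr5:120777700-120777759, minus strand). Oas1b-Oas1c (chr5:120812598-120812634, plus strand) comes from the element shared by those paralogs. Oas1a (chr5:120907522-120907570, minus strand) and Oas2 (chr5:120749890-120749949, plus strand) had no listed element and are shown because their start sites carry an ISRE all the same.
Oasl2 site 1: ggagaaactgGAAACAGAAAccaagctttg
Oasl2 site 2: gacaagaattGAAAGTGAAActgcagggag
Oasl1: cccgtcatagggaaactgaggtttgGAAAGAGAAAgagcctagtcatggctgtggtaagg
Oas3: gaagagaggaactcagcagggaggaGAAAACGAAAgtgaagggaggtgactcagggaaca
Oas1b-Oas1c: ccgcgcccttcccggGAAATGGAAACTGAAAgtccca
Oas1a: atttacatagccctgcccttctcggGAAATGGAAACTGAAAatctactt
Oas2: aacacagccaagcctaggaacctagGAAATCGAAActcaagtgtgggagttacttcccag

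All 7 elements had a positive effect, between 1.34 and 3.72 on the log2 scale with a median of 2.76. The median of all 5399 listed positive elements on the assembled chromosomes was 1.36, and that of the 1081 positive elements within 1000 bp of an annotated start site, called promoter elements below, was 1.29. Of the 9 genes, 5 had a positive element and 0 had a negative one. Over all 21924 protein-coding genes with an annotated start site, 16.0% had an assigned positive element and 19.7% an assigned negative one. From the relation of the deposited p-values to their adjusted values, about 114722 regions had been tested by the authors, of which 9.18% were listed and 4.71% were listed with a positive effect. Across the 3 gene clusters the list held 11 elements from the first to the last of these start sites, the 7 above and 4 nearest to a paralog, and all 11 were positive. No other element was listed within 30 kb beyond the outermost start sites.

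**Figure D1:**
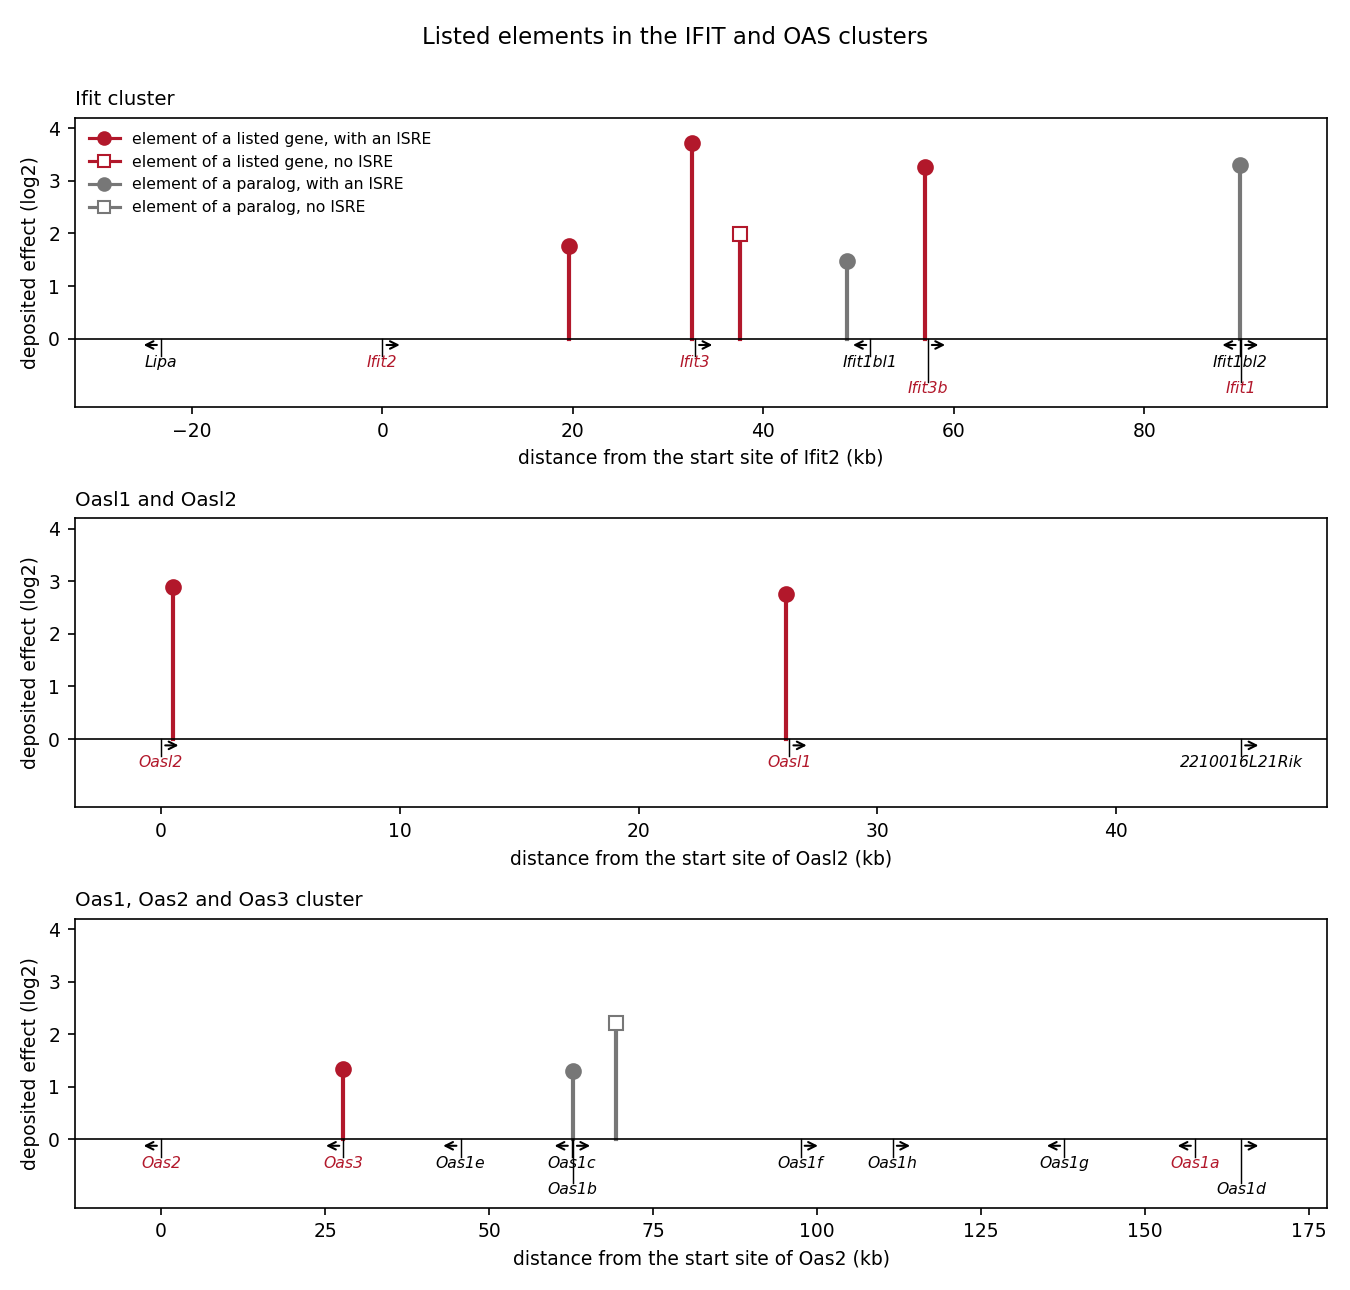
Deposited effect (log2, vertical axis) of each listed element against its distance in kb from the start site of Ifit2, Oasl2 or Oas2, for the 3 clusters. Arrows below the line mark 1 start site per gene (the most upstream) and its direction. Circles hold an ISRE, open squares hold none, red elements belong to the 9 genes and grey ones to paralogs. The highest point is the Ifit3 promoter at 3.72, and the stretch around Oas1f to Oas1a carries no element.

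Ifit3, which forms complexes with other IFIT proteins, held the highest effect among the 7 at its promoter. Its element (chr19:34583051-34583500, 450 bp) ran from 480 to 31 bp before the start site, outside any annotated transcript, with an effect of 3.72 (13.2-fold) and an adjusted p of 2.48e-09 by the authors' test. Of all listed positive elements, 238 were higher and 95.6% were lower. It held 2 ISREs, GAAAGTGAAA from 158 to 149 bp and GAAACTGAAA from 124 to 115 bp before the start site. Their first bases lay 34 bp apart, and both pointed against the direction of the gene.

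Ifit3b is the neighbouring near-copy of Ifit3. Its promoter element (chr19:34607326-34607950, 625 bp) ran from 644 to 20 bp before the start site, and its effect was 3.27 (9.63-fold) with an adjusted p of 3.50e-08. It carried the same 2 ISREs at the same spacing of 34 bp, from 201 to 192 bp and from 167 to 158 bp before its start site. The Ifit3 element matched the Ifit3b promoter over 433 of its 450 bases (96.2%), and the Ifit3b element matched the Ifit3 promoter over 605 of 625 (96.8%). The longest run without a difference was 182 bases and included both ISREs. How reads that fit both copies were assigned is not given in the sources used here, so these are not 2 independent measurements: reads from 1 copy could have counted for the other.

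The remaining 2 elements assigned to Ifit3 lay away from its promoter, and both were lower. The first (chr19:34570051-34570500, 450 bp) had its midpoint 13255.5 bp before the Ifit3 start site and an effect of 1.77 (3.40-fold, adjusted p of 1.62e-05). It lies inside Ifit2, where it covers an exon (chr19:34570219-34570370, of which 147 bp are untranslated and 5 bp coding) and 298 bp of intron, and it is 19565.5 bp from the annotated Ifit2 start site. Its ISRE, GAAATTGAAA, ends 17 bp before that exon. The second (chr19:34588076-34588550, 475 bp) was centred 4782 bp after the Ifit3 start site, in the last exon, across 189 bp of coding sequence and 286 bp of 3′ untranslated region. Its effect was 1.98 (3.96-fold, adjusted p of 1.51e-06), and it was the only one of the 7 without an ISRE. A stretch of Ifit3b matches it over 458 of 475 bases (96.4%), and no element was listed there.

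Oasl1 and Oasl2 start 26304 bp apart on chromosome 5, and their elements had near values. Oasl2 keeps the synthetase activity, whereas Oasl1 lacks it and is known for holding back translation of the interferon regulator Irf7. The Oasl2 element (chr5:114897051-114897800, 750 bp) lay wholly after the start site, from 115 to 864 bp, and had an effect of 2.90 (7.46-fold) with an adjusted p of 1.24e-10, the smallest of the 7. In the basic annotation it falls in the first exon, with 614 bp untranslated and 136 bp coding. Its 2 ISREs, GAAAGTGAAA and GAAACAGAAA, sit 29 bp apart at 533 to 542 bp and 562 to 571 bp after the start site, and the latter lies in annotated repeat sequence. Of 3 Oasl2 transcripts that span these sites in the full annotation, 1 holds them in an exon and the others in an intron. A further annotated Oasl2 exon starts at chr5:114897532, 54 bp and 25 bp after the ends of the 2 sites. Whether a transcript starts there was not analysed, so the distances above hold for the assigned start site only. The Oasl1 element (chr5:114922951-114923300, 350 bp) spanned the start site, from 289 bp before it to 60 bp after it, with an effect of 2.76 (6.78-fold, adjusted p of 2.08e-07). Its ISRE, GAAAGAGAAA, was 273 to 264 bp before the start site, near the edge of the element. The element overlaps the antisense gene Gm13822.

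Oas3, the large synthetase of the family, had the lowest effect of the 7. Its element (chr5:120777451-120777850, 400 bp) ran from 189 bp before to 210 bp after the start site and included 174 bp of coding sequence. The effect was 1.34 (2.53-fold) with an adjusted p of 8.11e-07, and 48.9% of all listed positive elements lay below it. Its ISRE, GAAAACGAAA, at 73 to 64 bp before the start site, was the only one of the 9 ISREs in these elements that pointed along its gene. The other 8 pointed against the gene they were assigned to, but they include the same sites in the near-copies Ifit3 and Ifit3b. Of the members without an assigned element, the Oas1a sites pointed along the gene, and the Ifit1 and Oas2 sites against it. No share of orientations over all listed elements is given here, so no preference was tested.

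**Figure D2:**
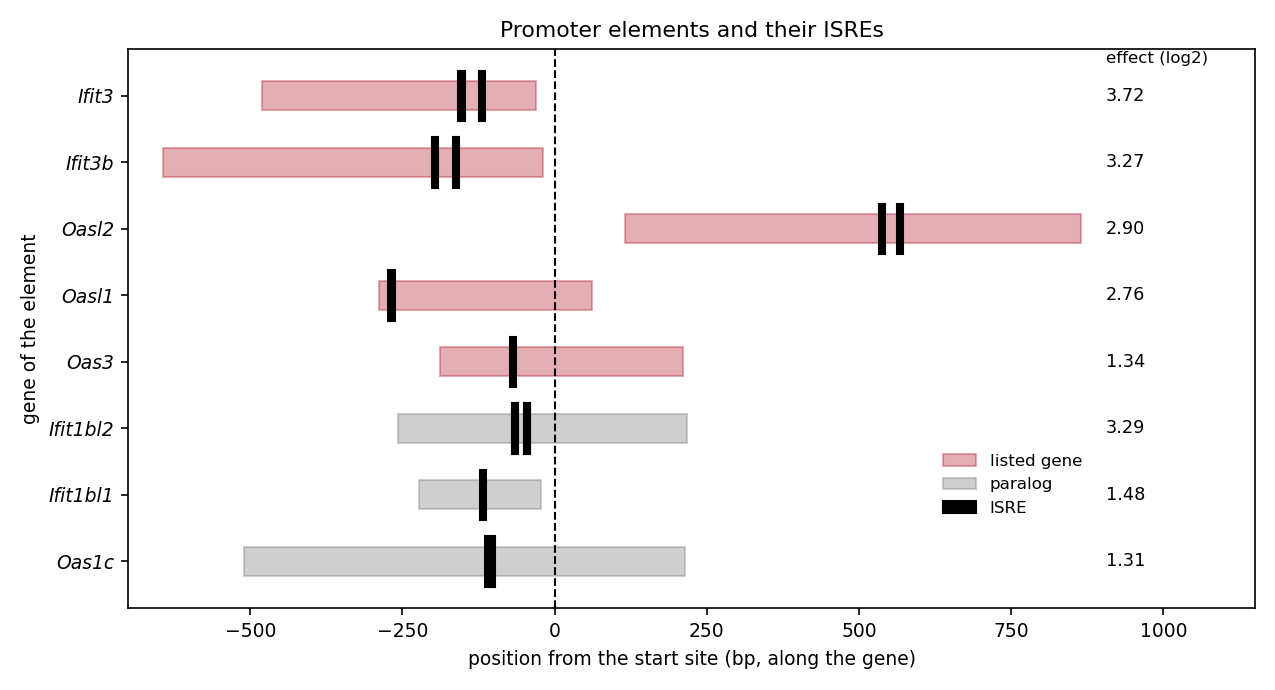
Promoter elements of the 9 genes (red) and of their paralogs (grey), drawn to scale by position in bp from the assigned start site, along the gene, with ISREs as black bars and the deposited effect (log2) at the right. Ifit3 and Ifit3b carry a pair of ISREs upstream of the start site. The Oasl2 pair lies more than 500 bp after the assigned start site, and shortly before a further annotated Oasl2 exon that is not drawn.

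By effect the order was the Ifit3 promoter (3.72), Ifit3b (3.27), Oasl2 (2.90), Oasl1 (2.76), the downstream Ifit3 element (1.98), the upstream Ifit3 element (1.77) and Oas3 (1.34). Whether neighbours in this order differ cannot be tested without values per replicate. The 5 promoter elements, of which Ifit3 and Ifit3b are near-copies, had a median of 2.90, against 1.29 over all listed positive promoter elements. Of the latter, 93.0% lay below the Ifit3 promoter element, 86.5% below Oasl1 and 52.8% below Oas3. The 2 elements away from promoters were 1.77 and 1.98.

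**Figure D3:**
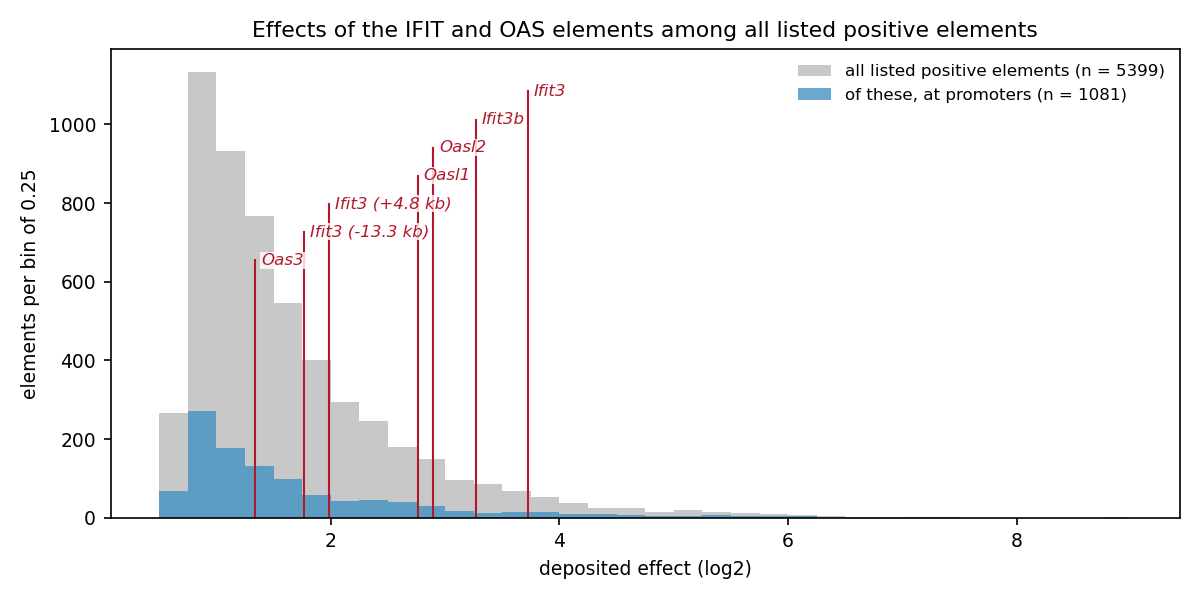
Histogram of the deposited effect (log2) of all 5399 listed positive elements (grey) and of the 1081 at promoters (blue), with the 7 IFIT and OAS elements as red lines labelled by gene. The Oas3 line falls near the median of all positive elements, and the Ifit3 promoter has 238 positive elements to its right.

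Ifit1, Ifit2, Oas1a and Oas2 had no element assigned. For Ifit1, which binds the capped end of viral RNA, this follows from the assignment alone: the Ifit1 start site lies inside a listed element (chr19:34640526-34641000, 475 bp) whose midpoint is 108 bp from it and 20 bp from the start site of Ifit1bl2, a paralog transcribed in the opposite direction from 128 bp away. That element had an effect of 3.29 (9.81-fold), an adjusted p of 1.17e-12 and 2 ISREs, GAAAGTGAAA and GAAACTGAAA. They are the same letters as at Ifit3, here 19 bp apart, at 86 to 77 bp and 67 to 58 bp before the Ifit1 start site. Assigned by the nearest edge, the element belongs to both genes, and 6 of the 9 then have a positive element.

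Ifit2, another RNA-binding member of the family, had no ISRE of this exact form within 1000 bp of its annotated start site, and none with 1 fixed letter free within the 250 bp before it. The RefSeq window of a further Ifit2 start site (chr19:34550838-34551137) held 1 match with 1 fixed letter free. The listed element nearest to Ifit2 is the one inside its own transcript described above. If elements inside a transcript were given to that gene, this element would pass from Ifit3 to Ifit2.

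Oas1a and Oas2 both had ISREs but no listed element. Oas1a, a double-stranded RNA sensing synthetase, has 2 overlapping matches from 24 to 9 bp before its start site, and its nearest listed element was 88220.5 bp away. Oas2, a synthetase of intermediate size, has GAAATCGAAA from 71 to 62 bp before its start site, almost the position of the Oas3 ISRE, and its nearest listed element was that of Oas3, 27797.5 bp away. An element that is not listed may have been tested and not called, or not covered; which holds was not analysed here.

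The 4 elements of paralogs were all positive, from 1.31 to 3.29, and 3 of them held an ISRE. Besides the shared Ifit1 and Ifit1bl2 element, Ifit1bl1 had a 200 bp element at 1.48 (chr19:34599351-34599550) with GAAAATGAAA. It matches the region around another start site of the same gene over 97.0% of its bases, which is not listed. An element of 725 bp at 1.31 (chr5:120812301-120813025) spans the start sites of Oas1c and Oas1b, which point away from each other. Oas1b is annotated as a polymorphic pseudogene and was therefore not eligible for assignment. The overlapping ISREs there have the same letters across both matches as those of Oas1a and end 7 bp before the Oas1b start site, against 9 bp for Oas1a. The fourth (chr5:120819051-120819550, 500 bp) lies in an Oas1b intron, had an effect of 2.22 and held no ISRE. The remaining paralogs Oas1d, Oas1e, Oas1f, Oas1g and Oas1h had no element.

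An ISRE was present in 6 of the 7 elements (85.7%, exact Clopper-Pearson 95% interval 42.1% to 99.6%). The share was 19.7% of all listed positive elements (1062 of 5399), 18.6% of positive promoter elements, 101 of 480 positive promoter elements of 350 to 750 bp (the width range of the 7), and 4.12% of negative elements. These shares depended on the definition: an ISRE in the central 200 bp was present in 3 of the 7 and in 12.4% of all listed positive elements, the motif followed by a C in 4 of the 7 and 9.78%, and the motif with 1 fixed letter free in 7 of the 7 and 64.6%. At least 2 ISREs were present in 3 of the 7 and in 4.32% of all listed positive elements. Median widths were 450 bp for the 7, 475 bp for all positive elements and 800 bp for negative ones. In 20150 RefSeq promoter windows of 300 bp, from 250 bp before to 50 bp after a start site, 3.42% held an ISRE and 0.258% held at least 2. Such windows were matched for 8 of the 9 genes by symbol. Those of Ifit1, Ifit3, Ifit3b and Oas1a held 2 ISREs, that of Oas3 held 1, and those of Ifit2, Oasl1 and Oasl2 held 0. Since Ifit3 and Ifit3b are near-copies, their elements do not count as separate observations, and the intervals cover counting only.

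**Figure D4:**
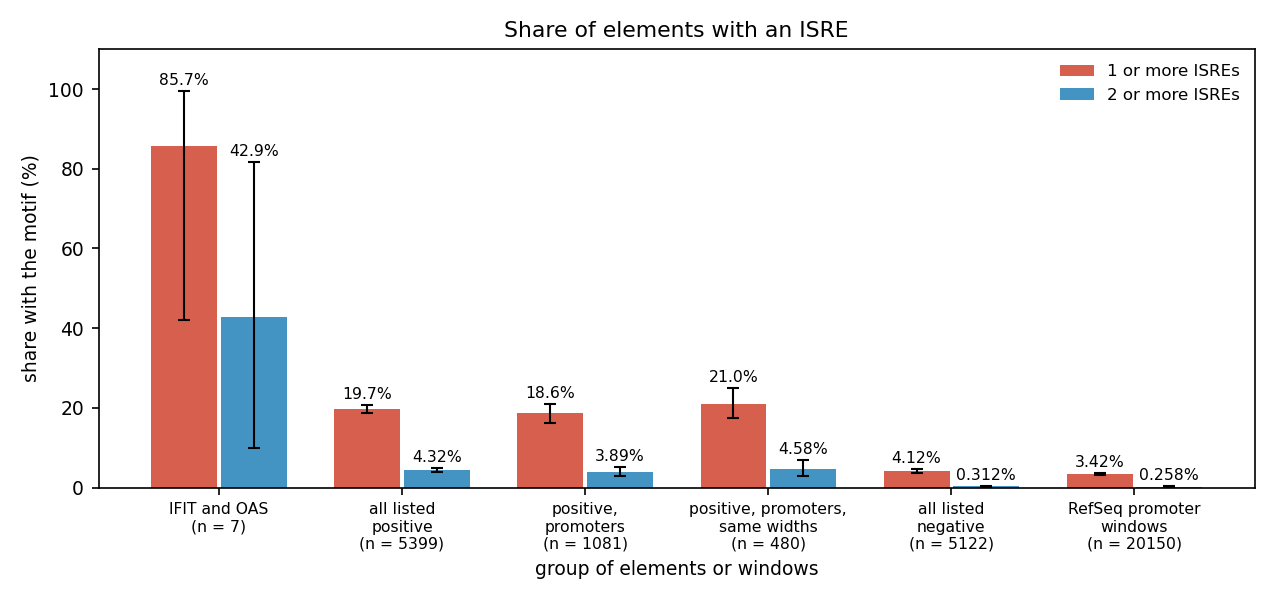
Share of elements or windows (percent, vertical axis) with at least 1 ISRE (red) and at least 2 (blue), with exact 95% intervals as black bars and n under each group. The 7 IFIT and OAS elements stand at 85.7% with a wide interval, and all listed positive elements stand at 19.7%.

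The letters of the cores differed among the genes. GAAAGTGAAA occurred in the Ifit3, Ifit3b and Oasl2 elements, and in 2.72% of all listed positive and 0.293% of negative elements. GAAACTGAAA occurred in the Ifit3 and Ifit3b elements and in 3.87% and 0.176% of those groups. GAAAACGAAA of Oas3 occurred in 0.630% of positive and 0.195% of negative elements, and GAAAGAGAAA of Oasl1 in 1.80% and 0.566%. The values were 3.85% and 0.195% for GAAACAGAAA of Oasl2, and 0.871% and 0.0781% for GAAATTGAAA of the upstream Ifit3 element. Over all listed positive elements the median effect was 1.34 without an ISRE (n = 4337), 1.35 with 1 (n = 829), 1.48 with 2 (n = 188) and 2.54 with 3 or more (n = 45). At promoters these medians were 1.26, 1.26, 1.80 (n = 34) and 2.14 (n = 8). Among the 7 elements, the 3 with 2 ISREs, of which Ifit3 and Ifit3b are near-copies, had effects of 2.90 to 3.72. The 3 with 1 ISRE had 1.34, 1.77 and 2.76, and the 1 without had 1.98, above 2 of those 3. Among the paralogs the order was not the same: the Oas1c element with 2 overlapping ISREs had 1.31, and the Oas1c element without one had 2.22.

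Other motifs were searched in the same way. GAS, the interferon-gamma activated site, taken as TTCNNNGAA, was found in the Oasl2 element and in the downstream Ifit3 element, 2 of 7 against 19.4% of all listed positive elements. AP-1 (TGANTCA), bound by Fos and Jun proteins, was found in 3 of 7, at Ifit3, Ifit3b and Oas3, against 37.6%. NF-kB (GGGNNTTTCC) and the Sp-type GC box (GGGCGG) were found in 0 of 7, against 9.02% and 19.6%, and an ETS match (CCGGAA) in 1 of 7, the downstream Ifit3 element, against 12.5%. A match names letters and not a bound factor.

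The 7 elements had a GC content of 45.8% to 56.0%. Within that range 90.5% of all listed elements (2669 of 2948) and 86.1% of listed promoter elements (465 of 540) were positive, against 51.3% and 19.9% at any GC content. Most listed elements of this base composition were thus positive too, and the part of GC content in the result was not tested. The CpG density was 22.5 to 22.9 per kb in the 3 OAS elements and 2.22 to 12.6 per kb in the 4 IFIT elements. The median of all positive promoter elements was 41.5 per kb and that of all negative elements was 91.6 per kb.

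**Figure D5:**
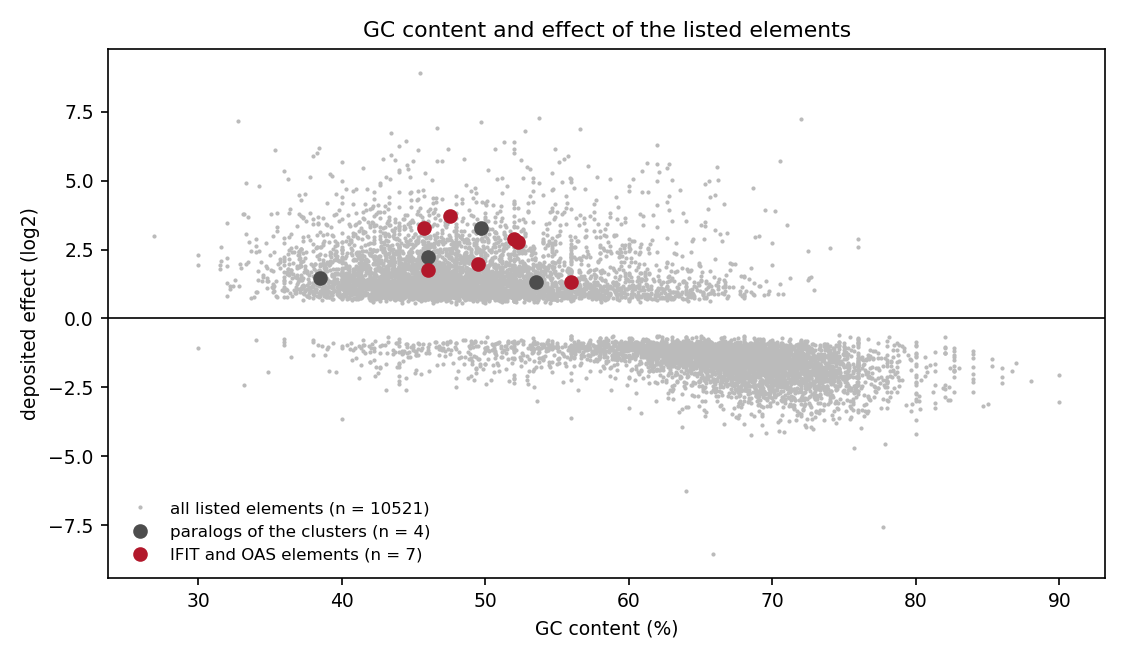
GC content (percent, horizontal axis) against the deposited effect (log2, vertical axis) of all 10521 listed elements on the assembled chromosomes (light grey), with the 7 IFIT and OAS elements in red and the 4 of paralogs in dark grey. The red points lie between 45.8% and 56.0% GC, where most listed elements are above 0.

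Further lists of the pathway are given for comparison, with no test between lists. Among 14 genes of the interferon receptor and ISGF3 pathway, 10 had a positive element and 4 a negative one. Over all protein-coding genes these shares were 16.0% and 19.7%. The 11 positive elements of this list had a median of 1.26, and 5 held an ISRE, against 19.7% of all listed positive elements. The highest were at the kinase Tyk2 (1.97), the receptor subunit Ifnar1 (1.83) and Irf9 (1.77), and none of these 3 held an ISRE. Negative elements lay nearest to the repressor Irf2 (-1.56 and -1.16), the signalling inhibitor Socs1 (-1.25 and -1.16), Ifnar1 (-1.29) and Ifnar2 (-0.92). The Socs1 element at -1.25, at its promoter, held 2 ISREs, and the other negative elements of this list held no ISRE.

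Among 21 other antiviral effector genes, 13 had a positive element and 3 a negative one, against the same shares of 16.0% and 19.7% over all genes. The 19 positive elements of this list had a median of 1.61, and 14 held an ISRE, against 19.7% of all listed positive elements. The highest were at the RNA sensor Ifih1 (2.98), the zinc-finger antiviral gene Zc3hav1 (2.73, a short element with 21 further copies in the genome) and the ubiquitin-like modifier Isg15 (2.71, with 3 ISREs). Negative elements were assigned to Parp14 (-1.83), the RNA editor Adar (-1.35) and the nucleic acid sensor Zbp1 (-1.13). That of Zbp1 held 1 ISRE, and those of Parp14 and Adar held no ISRE. In these 2 lists some genes had both positive and negative elements. Of the 9 IFIT and OAS genes only Ifit3, with 3 positive elements, had more than 1 element. The others could not have had both.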

How the data were processed

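The authors deposited 1 element list for both replicates; per the file headers it was made from the alignments of both on mm10. The aligner, the caller and the input library are not given in the sources used here. The deposited effect was read as log2, and the deposited p-value and adjusted p-value are on the linear scale. Elements lie on a 25 bp grid. No count or signal was used, so no depth, spread or test was computed here.

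Midpoints were joined to protein-coding start sites (GENCODE M21 basic). Sequences came from the RefSeq genome of GRCm38.p6, the assembly behind mm10. The reference is of C57BL/6J, and the cells were C57BL/6NJ. Motifs were exact matches on both strands, and overlapping matches were counted separately. Copies were genome matches over at least 95% of an element's bases (minimap2 2.31). Scripts used Python 3.11.15, pandas 2.3.3 and pysam 0.24.0 and were tested on simulated data. The 10 elements off the assembled chromosomes were not annotated. Every one of the 9 genes and each of their elements is named, and of the further lists the 3 largest effects and all negative elements. The members, the motif and the lists were chosen with earlier results of these data known. Alternatives covered the window, the annotation, the threshold, copies, width and the motif.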

Additional observations from a re-analysis of the deposited data

How the results depend on the processing

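In 25 of 30 alternatives run, counts stayed within 1.5 times or the median effect within its interval. Every alternative for the share of all listed positive elements with an ISRE left the interval of that share. Part of these outcomes was fixed in advance. The interval of the median effect was the range of the 7 effects (1.34 to 3.72), which a median of some of the same elements cannot leave. The cuts at an adjusted p of 0.001 and at a width of 200 bp removed none of the 7 elements, so the values there could not change. The count of 7 elements was 4 without elements that have another copy in the genome, which leaves Ifit3 (its upstream element), Oasl2, Oasl1 and Oas3, and was 6 to 8 under the other alternatives. The count of 5 genes ranged from 4 to 6: Ifit1 joined under the nearest edge, and Ifit2 joined when elements inside a transcript went to that gene, an alternative chosen after seeing the data, as was the full annotation. The median effect of 2.76 was 2.26 without copies and 2.83 within 10 kb. The count of 6 elements with an ISRE was 3 in the central 200 bp, 4 with a C required after the motif and 7 with 1 fixed letter free. The share of all listed positive elements with an ISRE, 19.7%, was 9.78% with the C required, 64.6% with 1 letter free and 12.4% in the central 200 bp, since each changes what is counted. Leaving out a replicate was not possible because the list pools both. No paired analysis was possible because no values per replicate are used here.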
